A study of Mus musculus with 13 samples.

Results

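The 49 genes described here are mouse genes of the interferon response and of antigen presentation by major histocompatibility complex (MHC) class I. They were chosen by symbol, with earlier results of these data known. Counts over the list are therefore descriptions, and the shares of all genes set beside them are not an independent test. All 49 were found among the 55642 genes of the count table, and all 49 were among the 16848 genes that passed the filter on low counts. By role they were 25 antiviral effectors, 6 sensors and transcription factors, 6 enzymes that attach or remove ubiquitin, ISG15 or ADP-ribose, 5 interferon-induced GTPases and 7 genes of antigen presentation.

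RNAseq was performed in C2C12 cells, an established mouse myoblast line derived from C3H muscle, to ask which transcripts change when the RNA-binding protein YBX3 is depleted. All cells were transfected with siRNA. Control KD cells received nontargeting siRNAs (siNT) and YBX3 KD cells siRNAs against Ybx3 (siYBX3). Each was collected as proliferating myoblasts (0 day) or after 1 day of differentiation (1 day). Every library was harvested 48 h after transfection, with the medium change given as 24 h after it. Time since transfection was thus the same at 0 day and 1 day. The siRNAs differed in sequence between control KD and YBX3 KD, so an effect of the transfected RNA cannot be told apart from loss of YBX3. The control KD had 4 libraries at 0 day (replicates A to D) and 2 at 1 day (C and D), whereas the YBX3 KD had 4 at 0 day (A to D) and 3 at 1 day (B to D). Untransfected cells were not analysed here. The labels call the replicates biological without saying whether they were separate cultures, so that p-values measure the spread between these libraries, which may be technical. Total counts per library ranged from 33451547 to 71811371. Ybx3 itself lay between 265 and 347 CPM (the count scaled by the size of the library) in the control KD and between 28.7 and 71.5 CPM in the YBX3 KD, without overlap. The 8 myoblast markers summed to 3110 to 4810 CPM, nearly all of it Vim, and the 11 immune cell markers to 1.91 to 4.06 CPM. Most of the immune sum came from Cd68 (1.36 to 2.47 CPM) and Csf1r (0.41 to 1.57 CPM), while the macrophage marker Adgre1 was at 0 in every library.

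Interferons are secreted proteins that warn cells of infection. Type I interferons bind the receptor Ifnar1 and Ifnar2, whose kinases activate transcription factors such as Stat2, which joins Irf9 in a complex that binds the interferon-stimulated response element (ISRE) in the promoters of antiviral genes. Interferon also raises MHC class I molecules, which show peptides cut by the proteasome and pumped by the Tap1 and Tap2 transporter on the cell surface together with B2m.

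Many of these genes share a sequence feature, the ISRE. The genes were not picked by its letters, but they were picked as interferon response genes, which interferon reaches through the ISRE. A high share of promoters with the ISRE is therefore in part fixed by the choice. The ISRE letters, GAAA followed after 2 bases by GAAA again, were searched on both strands from 250 bases before to 50 bases after the start of each gene's canonical GENCODE transcript (genome build GRCm39). They were found for 21 of the 49 genes (42.9%) against 822 of 21540 promoters (3.82%). The shorter gamma-activated motif, TTC followed after 3 bases by GAA, was found for 9 of the 49 genes (18.4%) against 8.78% of promoters. The ISRE letters were present for 13 of 25 antiviral effectors, 3 of 6 sensors and transcription factors, 2 of 6 ubiquitin, ISG15 and ADP-ribose enzymes and 3 of 5 GTPases, and for 0 of 7 antigen presentation genes. A match is a description of letters and not evidence of binding. The windows below, of 30 bases each, were taken from genes whose levels the results turn on. They are written in the direction of the gene, with the motif in capitals, which appears as TTTC followed after 2 bases by TTTC where it lies on the other strand.
Oas1a: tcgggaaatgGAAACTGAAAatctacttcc
Oas1b: ccgggaaatgGAAACTGAAAgtcccatttc
Oas2: cacacttgagTTTCGATTTCctaggttcct
Oas3: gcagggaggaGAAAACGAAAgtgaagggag
Usp18: ggatctagggGAAAACGAAAgcttggcggt
Rtp4: ccgggaaatgGAAACTGAAAgaaccgggaa
Ifit3: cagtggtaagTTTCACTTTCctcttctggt
Ifit3b: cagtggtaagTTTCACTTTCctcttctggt
Rsad2: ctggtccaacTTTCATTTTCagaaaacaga
Gbp2: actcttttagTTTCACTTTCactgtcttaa
The windows of the Oas genes lie at chr5:121045583-121045612 (minus strand, Oas1a), chr5:120950674-120950703 (plus, Oas1b), chr5:120887970-120887999 (minus, Oas2) and chr5:120915780-120915809 (minus, Oas3), in 1 cluster of neighbouring genes. Those of Usp18, Rtp4 and Rsad2 lie at chr6:121222796-121222825 (plus), chr16:23428617-23428646 (plus) and chr12:26506552-26506581 (minus). The Ifit3 window at chr19:34560763-34560792 and the Ifit3b window at chr19:34585159-34585188, both on the plus strand, hold the same letters. The Gbp2 window at chr3:142326355-142326384 (plus) and the Oas1a window reach past the transcript start, and the other windows printed end at or before it.

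The ligands of the pathway were almost silent in these cells. Of 14 interferon genes listed, 10 had 0 counts in every library, none passed the filter, and Ifnb1 had 0 to 2 counts per library. The receptor chains were expressed, Ifnar1 at 51.1 to 78.5 CPM and Ifnar2 at 24.9 to 34.7 CPM. Nlrc5, the activator of MHC class I genes, had 0 to 11 counts per library.

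Levels were compared between genes per kilobase of the canonical transcript, as CPM per kilobase in the 4 control KD libraries at 0 day (mean ± SD, n = 4). Among antiviral effectors, the membrane proteins Ifitm2 (214 ± 49.4) and Ifitm3 (209 ± 32), which hinder virus entry, were the most abundant, and the GTPase Mx1 (0.0445 ± 0.0237) was the least. B2m, the light chain of MHC class I, reached 209 ± 41.3 and did not differ from the Ifitm pair beyond their spread. The heavy chains H2-K1 and H2-D1 followed at 58.4 ± 13.8 and 47.3 ± 11.1, again within each other's spread. Here the SD is the spread between libraries. It is not the error of a difference between genes measured in the same libraries, which was not tested. The lowest antigen presentation gene was the immunoproteasome subunit Psmb9 (0.891 ± 0.408). Among transcription factors and sensors, Irf1 was highest (30.3 ± 10.3) and the RNA helicase Dhx58 lowest (0.604 ± 0.177). The GTPases ran from Irgm1 (23.7 ± 3.79) to Gbp7 (0.348 ± 0.137), and the ubiquitin, ISG15 and ADP-ribose enzymes from Trim25 (7.32 ± 0.537) to Trim30a (0.249 ± 0.184). Ifitm2, Ifitm3 and the MHC class I genes B2m, H2-K1 and H2-D1 were thus the most abundant per length, and Mx1, Mx2, Oas1a, Oas1b, Oas2, Oas3, Ifit3b and Cmpk2 all lay below 0.5 CPM per kilobase.

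**Figure D1:**
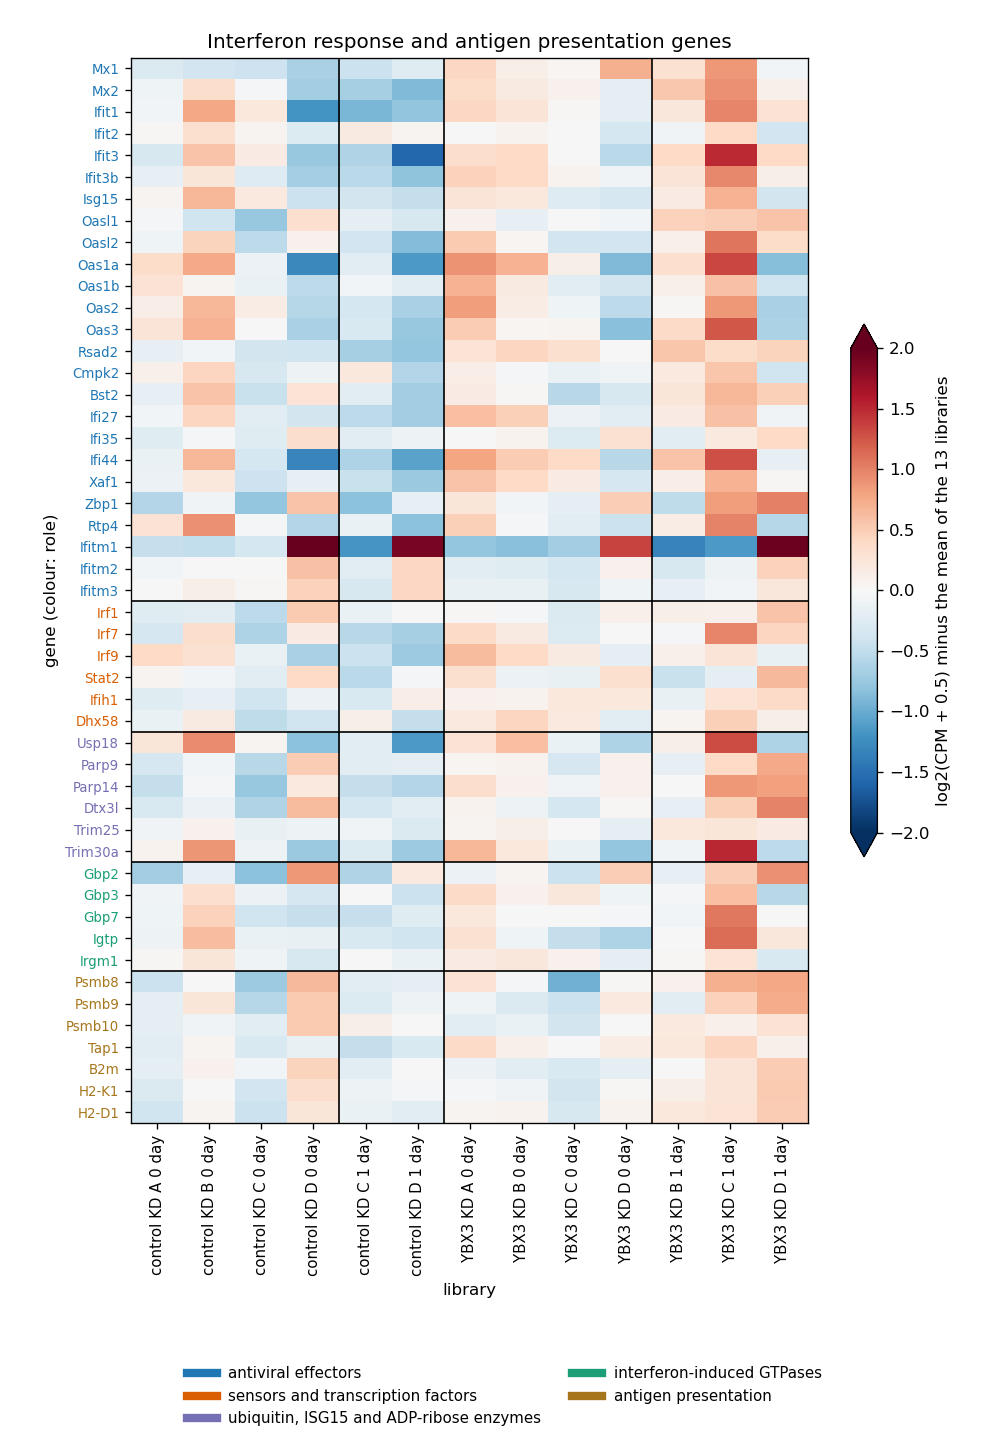
Level of each of the 49 genes (rows, coloured by role) in each of the 13 libraries (columns), as log2(CPM + 0.5) minus the mean of the 13 libraries, with values beyond 2 drawn at the end of the scale. The YBX3 KD C 1 day library was the highest for 27 of the 49 genes, and the 4 replicate D libraries are dark red for Ifitm1.

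Libraries stood apart in this group of genes before any comparison. The YBX3 KD C 1 day library held the highest level of 27 of the 49 genes, against 4.61% of all genes tested, and the YBX3 KD D 1 day library the highest of 14, against 18.6%. The control KD D 1 day library was the lowest for 16 members, against 7.74% of all genes. YBX3 KD C 1 day also had the highest level of the differentiation factor Myog (3.46 CPM, against 0.0523 to 0.888 CPM in the other libraries). The same library held the most Ybx3 of the YBX3 KD libraries (71.5 CPM, against 28.7 to 47 CPM in the others). Whether either is linked to the level of the interferon genes was not tested.

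Over both time points, 3 of the 49 genes were higher in the YBX3 KD and 0 were lower (edgeR's quasi-likelihood test, Benjamini-Hochberg adjusted p under 0.05). Of all genes tested 2.34% passed, 1.29% higher and 1.04% lower. The 3 were Rsad2, which makes an antiviral nucleotide, Mx1, and Tap1. In bulk RNA, more cells that express a gene and more RNA per cell cannot be told apart. At the thresholds of the study, an absolute fold change over 1.3 with an adjusted p under 0.001, 0 members passed, against 0.113% of all genes, whereas 12 had an unadjusted p under 0.05, against 15.6%. The fitted log2 fold change was above 0 for 43 of the 49 genes, against 50.1% of all genes, with a median of 0.36, or 0.20 without control KD D 1 day and 0.23 without YBX3 KD C 1 day. Without the control KD C 1 day library the count of 3 fell to 0, and without control KD C 0 day to 1. The share of all genes called in these 2 fits is not given here, so a loss particular to the members cannot be told from a loss over all genes. The replicate letter pairs the libraries, and with the letter as a block 6 members passed, namely Mx1, Rsad2, Tap1, Ifit3b, the RNA sensor Ifih1 and Irf9, while 9.78% of all genes passed in that fit.

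Rsad2 lay at 3.97, 4.33, 3.35 and 3.27 CPM in control KD A to D at 0 day and at 2.64 and 2.43 CPM in control KD C and D at 1 day. In the YBX3 KD it lay at 5.55, 6.25, 5.71 and 4.51 CPM at 0 day (A to D) and at 6.85, 5.96 and 6.27 CPM at 1 day (B to D). Every YBX3 KD library was above every control KD library, and the log2 fold change was 0.84 ± 0.15 (SE; edgeR's quasi-likelihood test, adjusted p = 0.0132). Its adjusted p was 0.0542 without the control KD C 1 day library.

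Mx1 had few reads, with 1 to 8 counts in the 6 control KD libraries and 12 to 38 in the 7 YBX3 KD libraries, again without overlap. In CPM the control KD ran from 0.0309 to 0.209 and the YBX3 KD from 0.307 to 1.02. Its log2 fold change was 2.07 ± 0.39 (edgeR's quasi-likelihood test, adjusted p = 0.0179), and the adjusted p was 0.0504 without control KD C 0 day and 0.0529 without control KD C 1 day. Rsad2 and Mx1 were the 2 members whose groups did not overlap, against 0.95% of all genes tested.

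Tap1 lay between 7.54 and 11 CPM in the control KD and between 10.6 and 14.6 CPM in the YBX3 KD. The groups overlapped only through control KD B 0 day at 11 CPM and YBX3 KD C 0 day at 10.6 CPM. Its log2 fold change was 0.46 ± 0.11 (edgeR's quasi-likelihood test, adjusted p = 0.045), a call that was lost in 11 of the 13 fits that left out 1 library, with adjusted p up to 0.124. Its partner Tap2 had a log2 fold change of 0.35 ± 0.15 and did not pass (adjusted p = 0.29, same test). B2m (-0.05 ± 0.14) and H2-K1 (0.11 ± 0.13) did not pass.

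**Figure D2:**
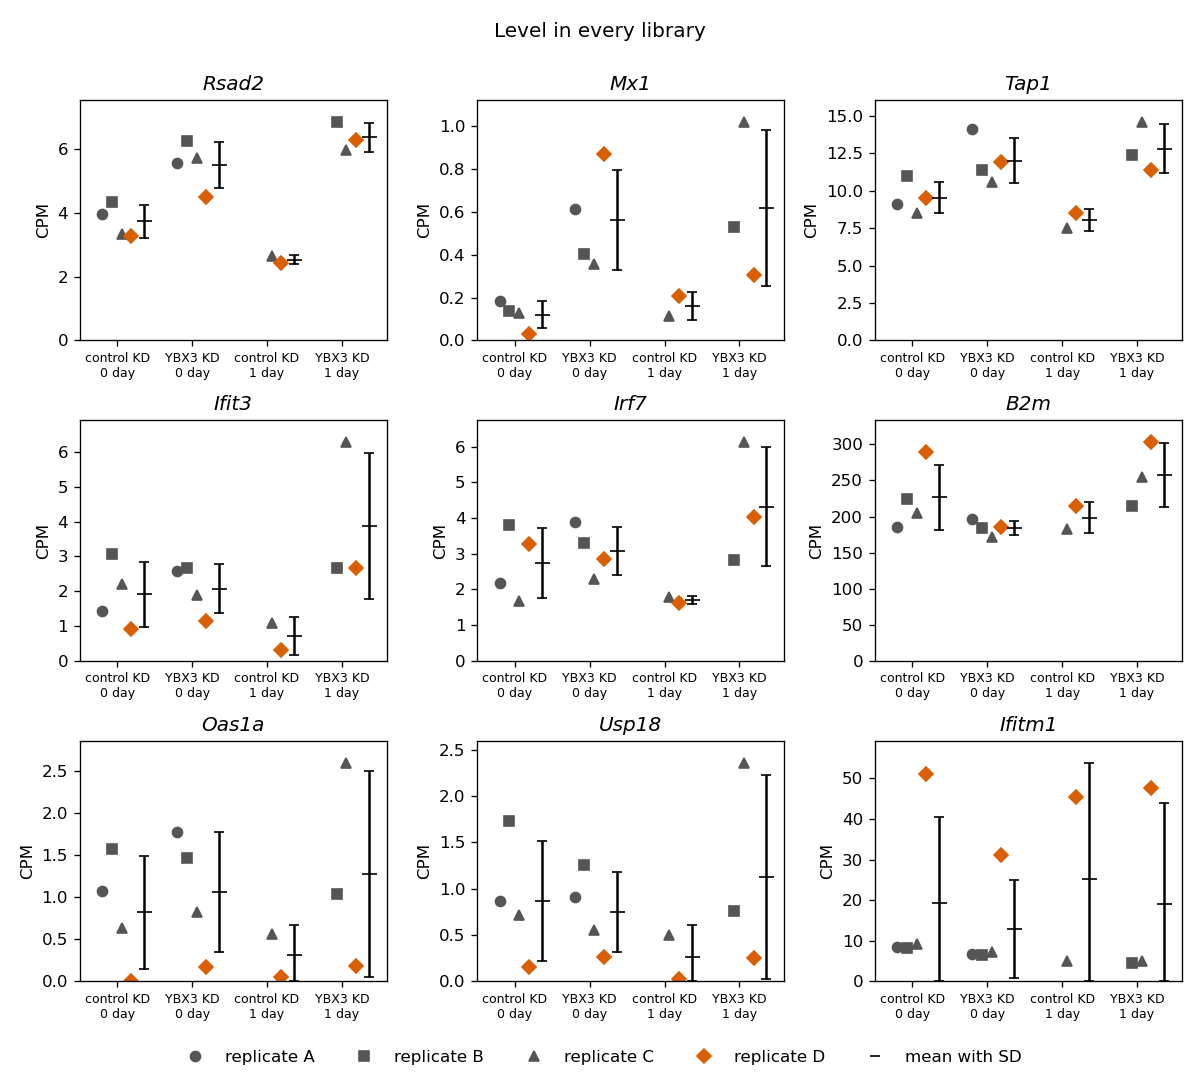
CPM of 9 of the genes in every library by group, with replicate D in orange, and the mean with SD beside the points (bars stop at 0). Rsad2 and Mx1 of the YBX3 KD lie above all control KD libraries, Oas1a and Usp18 are lowest in replicate D, and Ifitm1 lies at 31.1 to 51 CPM in replicate D and at 4.39 to 9.23 CPM in the other replicates.

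In proliferating myoblasts (0 day), 0 of the 49 genes passed in edgeR's quasi-likelihood test, against 0.427% of all genes, and 4 had an unadjusted p under 0.05 (Mx1, Rsad2, Ifih1 and Tap1), against 11% of all genes. DESeq2 called 2 members, against 3.13% of all genes given an adjusted p, and limma-voom 4, against 10.6%. The fitted difference was above 0 for 30 members and below 0 for 19, against 49.2% of all genes above 0. The median was 0.06 and ran from -0.01 (without control KD C 0 day) to 0.20 (without control KD B 0 day) when 1 library was left out. The YBX3 KD and control KD libraries did not overlap, with the YBX3 KD higher, for 3 members (Mx1, Rsad2 and Ifih1), against 4.83% of all genes, and with the YBX3 KD lower for Ifitm3, against 4.27%. With the replicate letter as a block, Rsad2 passed with a log2 fold change of 0.56 ± 0.11 (edgeR's quasi-likelihood test, adjusted p = 0.0312). Within letters at 0 day, the YBX3 KD library was above its control for 44 members in A, 20 in B, 31 in C and 22 in D. Of all genes tested, 52.3%, 47.6%, 49.2% and 53.3% were above in the same pairs. The replicates therefore did not share a direction over the list at 0 day.

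After 1 day, Rsad2 was the only member to pass (log2 fold change 1.33 ± 0.19, 2.51-fold; edgeR's quasi-likelihood test, adjusted p = 0.0337), against 0.0712% of all genes, and it was the 1 gene of the whole table called higher at this time (0.00594% of all genes). That call was lost in 11 of the 13 fits that left out 1 library, with adjusted p up to 0.413 without control KD D 1 day, while the log2 fold change stayed between 1.27 and 1.39. At an unadjusted p under 0.05 there were 20 members, against 7.79% of all genes, and all 20 were higher. For 45 of the 49 genes the fitted difference was above 0, against 52.1% of all genes, with a median of 0.82. All 3 YBX3 KD libraries were above both control KD libraries for 26 members, against 10.5% of all genes, and below them for 0, against 9.4%. Without the YBX3 KD C 1 day library the median was 0.58. The control KD at 1 day held letters C and D and the YBX3 KD letters B to D, and the main fit leaves the letter out. These differences are therefore partly mixed with differences between letters. With the letter as a block, 2 of the 49 genes changed sign. Within letters the YBX3 KD library was higher for 48 members in C (50.1% of all genes) and 43 in D (50.8% of all genes).

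The fitted differences at 1 day are given here by role, without a test between roles, whose ranges overlapped. Antiviral effectors had a median log2 fold change of 1.10, with 21 of 25 above 0, and the ubiquitin, ISG15 and ADP-ribose enzymes a median of 1.00 with all 6 above 0. The GTPases had a median of 0.70, antigen presentation genes 0.52, and sensors and transcription factors 0.42, with every member of these lists above 0. Ifitm1, Ifitm2, Ifitm3 and Ifit2 were the 4 members below 0, between -0.41 and -0.07, and none of these 4 passed.

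Ifit3, which helps other Ifit proteins bind viral RNA, lay at 1.09 and 0.314 CPM in the control KD at 1 day and at 2.68, 6.28 and 2.66 CPM in the YBX3 KD (B, C and D). Irf7, which amplifies the interferon response, lay at 1.78 and 1.62 CPM against 2.81, 6.12 and 4.02 CPM. In both genes YBX3 KD C 1 day was the highest library and the groups did not overlap, and the log2 fold changes were 2.44 ± 0.67 and 1.34 ± 0.40. Of the 31-base words of Ifit3, 56.7% occur in other genes, nearly all of them in Ifit3b, so that reads of these genes may be shared. Neither passed (edgeR's quasi-likelihood test, adjusted p = 0.431 and 0.485). B2m lay at 183 and 214 CPM against 215, 255 and 303 CPM, a difference that likewise did not pass (0.38 ± 0.18).

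**Figure D3:**
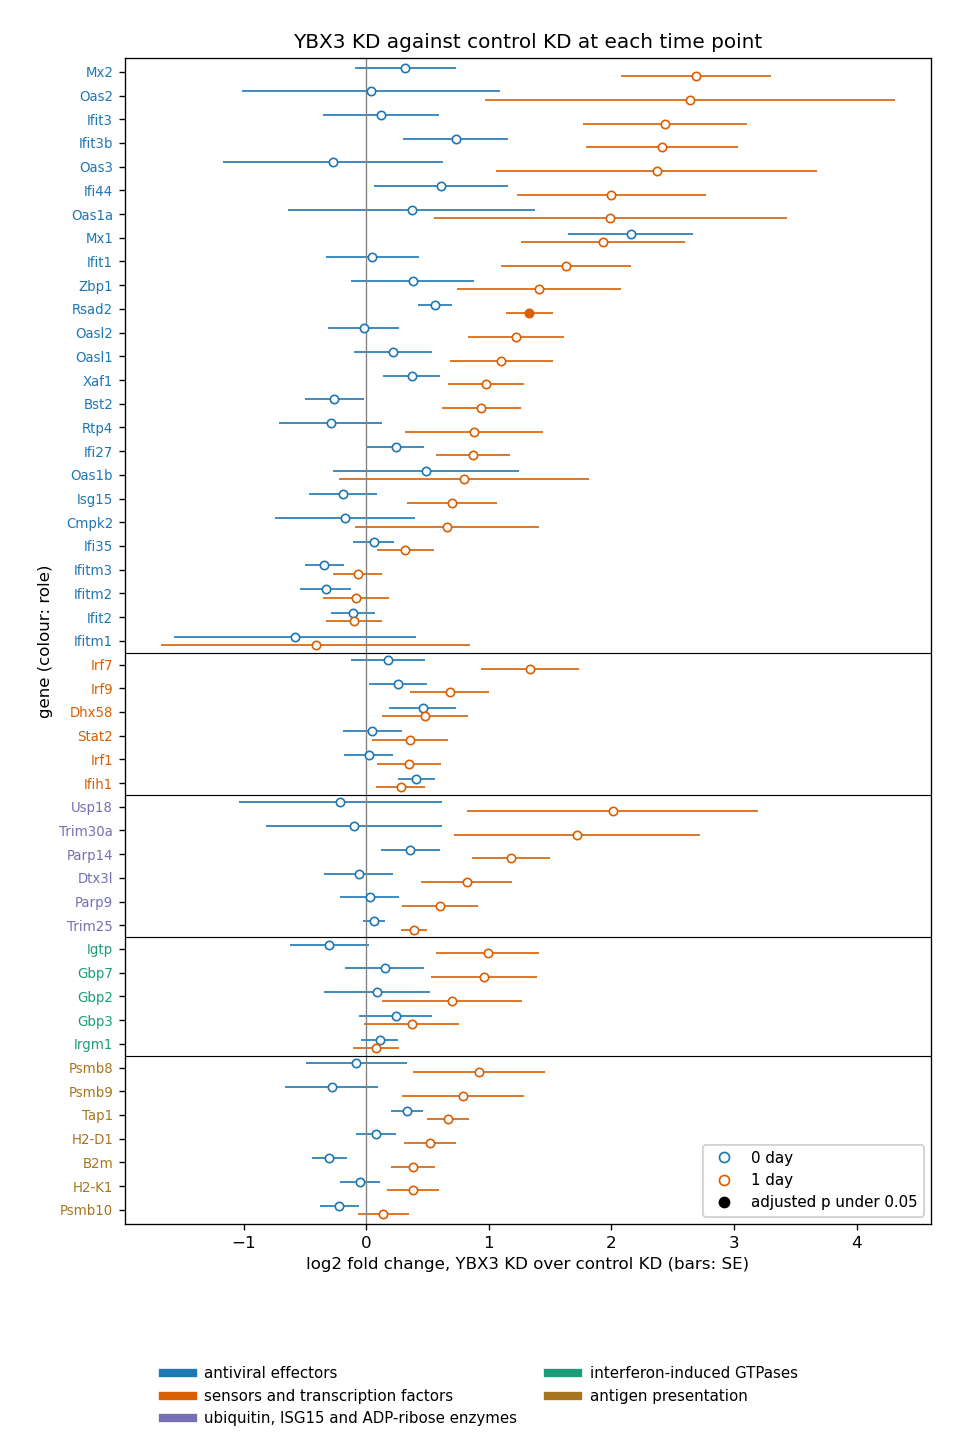
Fitted log2 fold change of the YBX3 KD over the control KD for each of the 49 genes at 0 day and at 1 day, with SE, ordered by role and by the value at 1 day. Rsad2 at 1 day is the one filled point, and the values at 1 day lie to the right of those at 0 day for most genes, with wide errors for the Oas genes.

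The difference between these time points was tested directly. The interaction called 0 members and 0% of all genes in edgeR's quasi-likelihood test, with 11 members at an unadjusted p under 0.05, against 2.64% of all genes, and 0 members in DESeq2 and in limma-voom. The fitted interaction was above 0 for 46 of the 49 genes, against 49.9% of all genes, with a median of 0.76, or 0.53 without all replicate D libraries. The smallest p-values were those of Rsad2 (0.76 ± 0.23, unadjusted p = 0.00627 in edgeR's test) and Mx2 (2.37 ± 0.72, unadjusted p = 0.00664 in edgeR's test). With 2 control KD libraries at 1 day, a larger effect at 1 day than at 0 day was not shown for any single gene.

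Between 0 day and 1 day no member passed within either siRNA. In the control KD, 0 members passed (0% of all genes called) and 4 had an unadjusted p under 0.05 (1.44% of all genes). Of the 49, 43 had a fitted difference below 0 and 6 above 0, against 49% of all genes above 0. The median was -0.34. Without control KD D 0 day, 13 members changed sign in this step. In the YBX3 KD, 0 members passed (0% of all genes called) and 7 had an unadjusted p under 0.05 (4.28% of all genes). Of the 49, 45 were above 0, against 49.3% of all genes, with a median of 0.38. Without YBX3 KD C 1 day the median was 0.13 and 20 members changed sign. Over both siRNAs 0 members passed and 0 had an unadjusted p under 0.05 (0% and 2.83% of all genes). DESeq2 and limma-voom called 0 members in each of these steps. Rsad2 in the control KD, lower at 1 day in both libraries than in all 4 at 0 day, was 1 of 4 members lower without overlap (2.93% of all genes) and had a log2 fold change of -0.56 (unadjusted p = 0.00846 in edgeR's test). These steps share the libraries of the comparisons above and are not separate evidence on them. They are also partly mixed with the letter, since the control KD held A to D at 0 day and only C and D at 1 day. The YBX3 KD held A to D at 0 day and B to D at 1 day. With the letter as a block, 4 members changed sign in the control KD, 1 in the YBX3 KD and 12 over both siRNAs.

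More members were called for replicate D against replicates A to C than for the YBX3 KD against the control KD. These counts come from unlike fits, since the main YBX3 KD fit leaves the letter out. The share of all genes called was also far higher for replicate D than the 2.34% of the YBX3 KD comparison. With the group in the fit, 28 of the 49 genes passed (edgeR's quasi-likelihood test, Benjamini-Hochberg adjusted p under 0.05), 17 lower and 11 higher in D. Over all genes, the D libraries deviated from their group means together (pairwise correlations of 0.508 to 0.843). The fit takes them as independent although they are 1 letter set against 3, so these p-values may be too small. Of all genes tested 47.6% passed, 22.9% lower and 24.7% higher, so that a call as such is common in this comparison. At an unadjusted p under 0.05 there were 35 members, against 54.7% of all genes, and 19 members were above 0, against 51.6%. The groups did not overlap for 7 members lower in D, against 9.1% of all genes, and for 2 members higher, against 9.66%. Without control KD D 0 day the count was 13 and without YBX3 KD D 1 day it was 16. The share of all genes called in fits that left out 1 library is not given here, so these counts have no background beside them. In every fit that left out 1 library 13 members passed: the Oas genes Oas1a, Oas1b, Oas2 and Oas3, Usp18, Ifi44, Irf9 and Irgm1, lower in D, and Ifitm1, Ifitm2, Ifitm3, Gbp2 and Stat2, higher in D.

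The 2'-5'-oligoadenylate synthetases, which make the signal that activates RNase L, were at the low end of replicate D. Oas1a lay at 0, 0.164, 0.0523 and 0.179 CPM in the D libraries (control KD 0 day, YBX3 KD 0 day, control KD 1 day and YBX3 KD 1 day) and between 0.562 and 2.60 CPM in the 9 others. The log2 fold change was -3.65 ± 0.58 (edgeR's quasi-likelihood test, adjusted p = 0.00137), with 0 to 7 reads per D library, and 67.2% of the 31-base words of its transcript also occur in other genes, mostly in Oas1g, so that its reads may be shared. Oas3 lay at 0.0235 to 0.102 CPM in D and at 0.252 to 1.69 CPM in the others (-3.34 ± 0.53). Oas2 had 3 reads over all 4 D libraries and 211 over the 9 others, which gives 4.28% of the level elsewhere (exact 95% counting interval 0.876 to 12.7%, counting error only). All 3 had no overlap between D and the rest, and Oas1b at -2.20 ± 0.49 had an overlap.

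Usp18, which removes ISG15 and dampens receptor signalling, lay at 0.0261 to 0.258 CPM in D and at 0.504 to 2.36 CPM in the others (-2.49 ± 0.52). Rtp4, Trim30a and Irgm1 were the other members lower in D without overlap, Irgm1 by only -0.36 ± 0.08. Irf9 was 64.5% of the level in A to C, with D at 7.03 to 10.7 CPM against 8.71 to 18.7 CPM.

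The higher members included the Ifitm genes. Ifitm1 lay at 51.0, 31.1, 45.5 and 47.7 CPM in the D libraries, in the same order, and at 4.39 to 9.23 CPM in the 9 others, a log2 fold change of 2.78 ± 0.16 (edgeR's quasi-likelihood test, adjusted p = 0.000114). Ifitm2 lay at 202 to 285 CPM in D and at 150 to 192 CPM elsewhere (0.55 ± 0.07), and its neighbour Ifitm3 was higher by 0.35 ± 0.08 with an overlap. Ifitm1 and Ifitm2 were the 2 members that passed the thresholds of the study, against 6.02% of all genes. Of their 31-base words, 32.0% in Ifitm1 and 34.7% in Ifitm2 occur in other genes. Among transcription factors, Stat2 (0.50 ± 0.10) and Irf1 (0.42 ± 0.12) were higher in D while Irf9, the partner of Stat2, was lower. B2m (0.28 ± 0.09) and H2-K1 (0.29 ± 0.11) were higher, and both calls were lost in 8 of 13 leave-one-out fits.

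**Figure D4:**
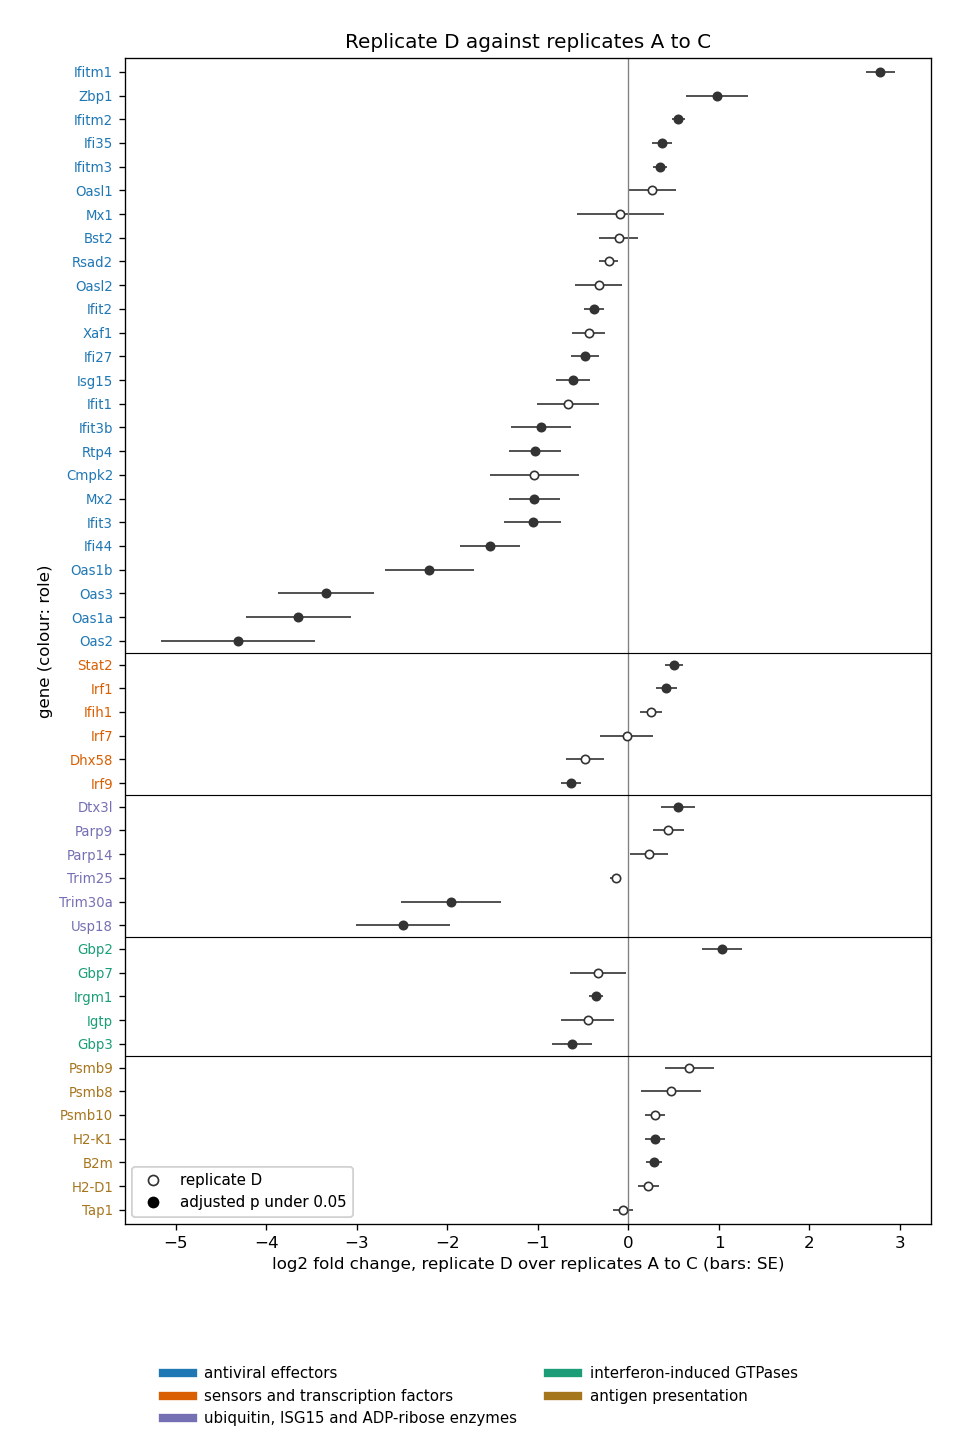
Fitted log2 fold change of replicate D over replicates A to C for each of the 49 genes, with SE, by role, with filled points at an adjusted p under 0.05. Values run from -4.31 for Oas2 to 2.78 for Ifitm1, and antiviral effectors lie on both sides of 0.

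The genes with ISRE letters in their promoter windows lay lower in replicate D than those without. Of the 21 genes with the motif, 12 were called lower and 3 higher, with a median log2 fold change of -0.61. Of the 28 without it, 5 were called lower and 8 higher, with a median of 0.23. Of all genes tested, 22.9% were called lower in D and 24.7% higher. For the YBX3 KD at 1 day, the medians were 0.96 with the motif and 0.67 without it. The split is mixed with role, since 0 of 7 antigen presentation genes hold the motif. The genes with the motif also include the neighbouring Oas genes and the pair Ifit3 and Ifit3b, whose reads may be shared. These splits were not tested.

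Replicate D also moved in genes outside the interferon response. The muscle intermediate filament gene Des lay at 43.7 to 54.8 CPM in D and at 15.5 to 25.9 CPM in the others, and the myoblast factor Myf5 at 31.3 to 44.1 CPM against 47.7 to 73.5 CPM. The 11 immune cell markers summed to 2.56 to 4.06 CPM in D and to 1.91 to 3.59 CPM in the others, with 3 of 11 at 0 in every library and 2 of 11 passing the filter, and the 3 endothelial markers to 1.08 to 1.46 CPM against 0.728 to 1.45 CPM. Their part in the result was not tested, and what sets replicate D apart is not given in the labels.

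Other genes of the pathway were read from a list of 126, of which 96 were tested. Over both time points 1 was higher in the YBX3 KD (1.04%, against 1.29% of all genes) and 1 lower (1.04%, against 1.04%), shares near those of all genes. The checkpoint ligand Cd274 was higher (0.98 ± 0.17; edgeR's quasi-likelihood test, adjusted p = 0.0117). Its ranges overlapped, at 0.209 to 0.433 CPM in the control KD and 0.371 to 0.781 CPM in the YBX3 KD. It had few reads, with 8 to 19 counts per control KD library and 17 to 55 per YBX3 KD library. Rfxap, a subunit of the factor that drives MHC class II genes, was lower (-0.56 ± 0.08, adjusted p = 0.00536 in the same test), with every YBX3 KD library (7.09 to 9.37 CPM) below every control KD library (10.2 to 13.3 CPM). Ifnar1 (0.00 ± 0.10), Ifnar2 (-0.06 ± 0.08), the RNA sensor Rigi (0.29 ± 0.13) and the RNA-activated kinase Eif2ak2 (0.11 ± 0.08) did not pass. Nor did the peptide-loading factor Tapbp (-0.05 ± 0.21) or the constitutive proteasome subunits Psmb5 (-0.21 ± 0.11), Psmb6 (-0.14 ± 0.09) and Psmb7 (-0.11 ± 0.10). At 0 day and at 1 day 0 of the 96 passed, with 5 (5.21%, against 11% of all genes) and 7 (7.29%, against 7.79%) at an unadjusted p under 0.05 in edgeR's test.

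In replicate D, 27 of the 96 pathway genes were higher (28.1%, against 24.7% of all genes) and 18 lower (18.8%, against 22.9%), shares near those of all genes. The chemokine genes Ccl5 (-1.80 ± 0.20) and Cxcl10 (-1.90 ± 0.41), both induced by interferon, were lower, as were the adaptor Traf3 (-0.40 ± 0.06), the nuclear body gene Pml (-0.46 ± 0.07) and the phosphatase gene Ptpn11 (-0.30 ± 0.05). Cxcl10 had only 1 to 6 counts per D library. The other interferon-induced genes on the list went both ways in D. Of 41 tested, 7 were called higher and 10 lower, with a median log2 fold change of -0.02. Tyk2, a kinase of the interferon receptor, was higher (0.73 ± 0.10), as were the adaptor Ticam1 (0.56 ± 0.08) and Ifngr2 (0.56 ± 0.09). Tapbp was higher (0.67 ± 0.11), with the MHC class I relative H2-T23 (0.54 ± 0.14), whereas Psmb5, Psmb6 and Psmb7 were each lower, by -0.32 ± 0.08, -0.25 ± 0.06 and -0.30 ± 0.06.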

How the data were processed

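The authors mapped RNAseq reads with Salmon (version not given in the sources used here) to GRCm39 with the GENCODE canonical transcript list and deposited estimated counts per gene, as whole numbers, for 13 libraries. These expected counts were used as deposited. Because C2C12 derives from C3H mice and the reference is C57BL/6J, reads of the polymorphic MHC class I genes may be assigned imperfectly, which was not tested.

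Counts were filtered with filterByExpr, scaled by TMM, and tested with edgeR 4.0.16 (glmQLFit, glmQLFTest; R 4.3.3) on siRNA and day, or on the 4 groups, and for replicate D on group and letter. Benjamini-Hochberg adjustment ran over all 16848 genes tested, and an adjusted p under 0.05 was a call. The SE is the log2 fold change divided by the square root of F. Groups and replicate letters came from the labels. At 1 day the titles number the libraries from 1, which disagrees with the letters in the descriptions, and the letters were used to decide pairs and replicate D. The letters pair the libraries: over all genes, deviations from the group mean correlated above 0.1 for 16 of 16 pairs sharing a letter (0.207 to 0.843) and for 13 of 46 others. No 2 libraries of a group agreed within sampling noise.

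Alternatives were DESeq2 1.42.0, limma-voom (limma 3.58.1), relative log expression factors, no filter, a replicate block, and leaving out libraries. The procedure was tested on simulated counts drawn without an effect of the replicate letter. That test therefore cannot judge the fits where libraries of 1 letter vary together, as they do here. The 49 members and the pathway lists were chosen with earlier results of these data known. The genes named were those called in each comparison (up to 8 members per direction, up to 4 pathway genes), the most and least abundant of each role, and a fixed set of pathway genes, of which 1 is not reported here. Cxcl10, H2-T23, Des, Myf5 and Myog, and the members whose levels are given per library, were picked after their values were seen. Transcripts and promoter windows came from GENCODE on GRCm39.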

Additional observations from a re-analysis of the deposited data

Results flagged for a closer look

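In the 98 groups of 4 libraries examined (49 genes in the control KD and in the YBX3 KD at 0 day), 7 had 1 library far from the other 3 by Dixon's test at 95%, and chance flags about 1 in 20. Replicate D was high for Ifitm1 in the control KD (51 CPM, the others 8.29 to 9.23) and in the YBX3 KD (31.1 CPM, the others 6.44 to 7.14), for Ifitm2 in the control KD (285 CPM, the others 183 to 192) and for the immunoproteasome subunit Psmb10 in the control KD (30.5 CPM, the others 18 to 20.1). Control KD B was high for the GTPase Igtp (6.42 CPM, the others 3.55 to 3.67). YBX3 KD C was low for Parp9 (17.7 CPM, the others 23.2 to 23.9) and H2-D1 (85.6 CPM, the others 112 to 114).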

How the results depend on the processing

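Counts of members past an adjusted p of 0.05 changed with the tool, the filter and the block, and were the same with relative log expression factors for the YBX3 KD comparisons and replicate D. Over both time points the 3 members became 6 in DESeq2, 14 in limma-voom and 6 with the replicate block. Settings chosen after seeing the data gave 5 without all replicate D libraries and 10 in DESeq2 with the replicate block. At 0 day the count of 0 became 2 in DESeq2, 4 in limma-voom, 1 with the replicate block (2.37% of all genes), 1 without replicate D (5.49%) and 3 in DESeq2 with the replicate block (9.36%; Rsad2 higher, Ifitm2 and Ifitm3 lower). At 1 day the count of 1 became 6 in DESeq2 (1.09% of all genes given an adjusted p), 0 in limma-voom (0.0475%), 0 without the filter (0.0066%), 0 without replicate D (0.122%) and 17 in DESeq2 with the replicate block (17.3%). It stayed at 1 with the replicate block in edgeR, where the block changed no call in the interaction or the day steps. Leaving out 1 library gave 0 to 4 members over both time points, 0 to 1 at 1 day and 0 at 0 day. For replicate D it gave 13 to 30. The shares of all genes in the fits that left out 1 library are not given for any of these comparisons. The cause of the changes in count was not tested.

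Over all genes the 394 calls of both time points became 1179 in DESeq2 (7.03%), 3088 in limma-voom (18.3%) and 1647 with the replicate block, with 2155 (12.5%) without replicate D and 2951 (19%) in DESeq2 with the replicate block. For replicate D the other tools and settings gave 25 to 31 members. These were 31 in DESeq2 (48.4% of all genes), 25 in limma-voom (43.7%) and 28 with relative log expression factors (47.8%). Without the filter there were 26 (23.9%), and with only the libraries at 0 day 25 (36.7%). The interaction and the day steps had 0 members under every alternative. Of the 28 members called for replicate D, 15 lost the call in some leave-one-out fit and 8 under some other alternative, and no called member changed sign under any alternative. Depth limits the least abundant genes, since Mx1, Oas1a, Oas1b, Oas2, Oas3 and Usp18, among others, had under 10 reads in at least 1 library.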
